A study of Arabidopsis thaliana with 14 samples.

Results

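Siliques of the suppressor line Aza1 in its eM2 generation (n = 3) were compared with siliques of WT Col-0 plants (n = 2). The 5 libraries were taken by their titles from a series of 14, in which the submitters call the Aza1 libraries eM1 and the study calls them eM2, the name used here. Aza1 is a jas-3 line in the Col-0 background whose founder plant was exposed to the cytosine analogue 5-Azacytidine, and all its libraries descend from that plant, so differences between treated lines are not part of the spread given here. Other jas-3 libraries came from DMSO control plants (n = 3), which received the solvent alone, from untreated plants (n = 2) and from Aza1 in its eM3 generation (n = 4), which enter the shared fit. All plants carried the homozygous jas-3 insertion except WT. Each library held 3 siliques collected 6 to 9 days after anthesis from greenhouse plants under days of 16 h. The age of each library within that window was not given in the sources used here, so seed stage and genotype cannot be told apart. The study calls the replicates biological, but separate plants were stated only for the eM3 libraries, which came from 4 siblings.

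In flowering plants the seed is built by an embryo and an endosperm, and the endosperm needs a balance of maternal and paternal genomes. The jas mutant forms diploid pollen, which gives triploid seeds whose endosperm keeps dividing without forming cell walls, and such seeds collapse, a response called the triploid block. Imprinted genes are read mainly from one parental copy, and paternally expressed genes (PEGs) and type I MADS-box genes are known to rise in such endosperm. The comparison here asks which transcripts of the suppressor line stayed away from the WT level, with the DMSO and jas-3 libraries as a scale. In whole siliques, fewer cells of a type and less RNA per cell cannot be told apart.

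Total gene counts lay between 40526464 and 43974069 per library. Even numbers made up 73.7% to 79.0% of gene counts between 1 and 20, so a count may hold fewer fragments than its size, and whether both mates of a pair were counted was not tested. Embryo, seed coat and silique wall markers had counts in all 5 libraries, and of 4 endosperm markers RGE1 and AGL62 had counts in all 5 while PHE1 and FWA were at 0 in WT. Of 5 pollen markers, VGD1 had 1898, 1583 and 2535 counts in Aza1 eM2, against 4470 and 2135 in WT, and PPME1 had 205, 134 and 298 in Aza1 eM2, against 381 and 327 in WT. AtVEX1 stood the other way, with 912, 1729 and 981 in Aza1 eM2, against 755 and 254 in WT, TIP5;1 had at most 16 counts and TIP1;3 at most 6. JASON, the gene disrupted in jas-3, had 80, 109 and 87 counts in Aza1 eM2, against 14 and 14 in WT, and was called higher (log2 fold change 2.24, SE 0.38, adjusted p = 0.000837, edgeR), a call lost without WT replicate 1. Counts over a whole gene do not show whether an intact transcript was made, so the untreated mutants are called the libraries labelled jas-3. Seed storage protein genes took 31%, 22% and 30.4% of gene counts in Aza1 eM2, against 37.2% and 43.1% in WT. The difference of the means was -12.4 percentage points (exact two-sided permutation p = 0.2, the smallest that 3 against 2 libraries allow). The same share was 10.7%, 19.7% and 22.8% in DMSO and 8.03% and 17.2% in the jas-3-labelled libraries. Its part in the differences from WT below was not tested beyond a fit that takes it as a covariate.

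Of 27394 genes, 22359 passed the filter on low counts and were tested. In Aza1 eM2, 1207 genes (5.4% of those tested) were higher and 363 (1.62%) were lower than in WT, with thresholds of 2 on the absolute log2 fold change and 0.01 on the adjusted p (edgeR's quasi-likelihood test, Benjamini-Hochberg adjustment). The libraries of the groups did not overlap for 1206 of the higher and 361 of the lower genes, while 60.9% of all genes tested showed no overlap. On the scale of Euclidean distances between log2 profiles of CPM (counts scaled to library size), Aza1 eM2 libraries lay 194.2 to 243.2 from WT libraries. Distances among the Aza1 eM2 libraries were 89.11 to 106.4 and that between the WT libraries was 110.8, and Aza1 eM2 lay 107.5 to 165.4 from DMSO. Without WT replicate 2, 836 genes were higher and 155 were lower, and with the seed storage share as a covariate 923 were higher and 189 were lower.

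Among the 1207 higher genes, the median log2 fold change against WT was 4.01 as fitted. It was 3.25 when the 234 genes at 0 counts in both WT libraries were set to their lower bound, computed against a floor of 3 counts per library. For the same genes the fitted medians against WT were 4.35 in DMSO and 4.51 in the jas-3-labelled libraries, and these comparisons share the WT libraries. The direct comparison of Aza1 eM2 with DMSO had a median of -0.36 over these genes. In that comparison 187 of them were called lower in Aza1 eM2, 14 were called higher, and the other 1006 were not called. Over all genes tested, 322 (1.44%) were lower and 16 (0.0716%) were higher in Aza1 eM2 than in DMSO.

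Cell division genes formed the most complete group above the WT level. All 8 DNA replication genes and 15 of 16 mitosis and cytokinesis genes were called higher, where 5.4% of all genes were, and no member of either list was lower. Their median log2 fold changes were 3.60 and 4.39, against 0.05 over all genes tested. In DMSO against WT the medians were 3.97 and 4.53, with 8 of 8 and 15 of 16 called higher where 7.44% of all genes were. No member of either list was called different between Aza1 eM2 and DMSO, with medians of -0.35 and -0.09 in that comparison. Without WT replicate 2, 7 of the 8 replication genes and 15 of the 16 mitosis genes were still called.

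Several of these genes have short recognition letters in front of their start, and stretches that hold them are printed to show where. E2F factors bind TTTCCCGC or TTTGGCGC and drive S-phase genes, and MYB3R factors bind AACGG, the core of the mitosis-specific element. Capitals mark a match on either strand, and each stretch holds the 120 bases directly before the annotated gene start, read in the direction of the gene from the RefSeq genome and annotation of TAIR10.1. The replication genes shown are MCM2 (chr1:16970094-16970213, plus strand), MCM5 (chr2:3527501-3527620, minus), MCM6 (chr5:18010668-18010787, minus) and MCM4 (chr2:7130730-7130849, minus), subunits of the helicase that opens DNA for replication.
MCM2: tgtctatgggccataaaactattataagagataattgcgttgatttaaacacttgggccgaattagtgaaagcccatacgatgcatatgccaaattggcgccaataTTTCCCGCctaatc
MCM5: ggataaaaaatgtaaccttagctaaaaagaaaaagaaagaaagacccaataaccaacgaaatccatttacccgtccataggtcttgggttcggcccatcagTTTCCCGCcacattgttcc
MCM6: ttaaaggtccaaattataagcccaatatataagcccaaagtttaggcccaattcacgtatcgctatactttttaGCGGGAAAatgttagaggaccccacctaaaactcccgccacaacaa
MCM4: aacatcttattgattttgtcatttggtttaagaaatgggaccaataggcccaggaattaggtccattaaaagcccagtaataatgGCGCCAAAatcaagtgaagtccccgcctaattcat
The division genes shown are KNOLLE (SYP111, chr1:2711001-2711120, minus), the syntaxin that fuses vesicles at the forming cell plate, and CYCB1;3 (chr3:3627274-3627393, minus), a B-type cyclin.
SYP111: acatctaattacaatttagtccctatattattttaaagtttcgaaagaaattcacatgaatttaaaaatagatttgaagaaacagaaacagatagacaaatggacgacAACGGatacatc
CYCB1;3: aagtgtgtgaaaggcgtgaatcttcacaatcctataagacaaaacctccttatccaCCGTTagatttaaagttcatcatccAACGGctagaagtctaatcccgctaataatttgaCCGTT
Counted over windows of 300 bases, from 250 before to 50 after the start, and on both strands, an E2F site stood in 5 of 8 replication genes (62.5%) and in 277 of the 22253 promoters of tested genes (1.24%). It stood in 46 of 1205 promoters of the genes higher in Aza1 eM2 (3.82%) and in 2 of 361 of the lower ones (0.554%). AACGG stood in 12 of 16 mitosis genes (75%) and in 25.4% of all these promoters. A match describes the letters and does not show binding.

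MCM5 had 514, 782 and 595 counts in Aza1 eM2, with 1343, 1105 and 952 in DMSO, against 78 and 44 in WT (log2 fold change 2.91 against WT, SE 0.23, adjusted p = 3.48e-06). MCM2 had 509, 834 and 669 counts in Aza1 eM2, with 1604, 1128 and 1020 in DMSO, against 62 and 16 in WT (3.67, SE 0.36, adjusted p = 1.74e-05). No Aza1 eM2 library reached a DMSO library in CPM for either gene, both lay far above WT, and neither was called against DMSO. PCNA2, a sliding clamp that holds DNA polymerase on its template, had 362, 536 and 410 counts in Aza1 eM2, with 800, 684 and 420 in DMSO, against 28 and 10 in WT. MCM4 and MCM6, whose stretches are printed above, were at 3.78 and 3.54 on the log2 scale against WT and at -0.59 and -0.14 against DMSO.

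KNOLLE had 1945, 3187 and 3240 counts in Aza1 eM2, with 6463, 5373 and 2890 in DMSO, against 72 and 19 in WT (5.52, SE 0.49, adjusted p = 8.38e-06). CYCB1;3 had 278, 434 and 676 counts in Aza1 eM2, with 777, 714 and 420 in DMSO, against 2 and 4 in WT (6.78, SE 0.65, adjusted p = 1.35e-05). For each the Aza1 eM2 and DMSO libraries overlapped and WT lay apart. CDKB1;1, a kinase of the G2 to M transition, had 217, 352 and 360 counts in Aza1 eM2, with 786, 630 and 428 in DMSO, against 6 and 8 in WT (4.98, SE 0.35, adjusted p = 2.1e-06). HIK, the kinesin HINKEL of the cell plate, had 620, 1119 and 1113 counts in Aza1 eM2, against 32 and 12 in WT. The member not called was TES, a kinesin of male meiotic cytokinesis, at 664, 853 and 769 counts in Aza1 eM2 and 241 and 250 in WT (1.16, SE 0.14, adjusted p = 5.78e-05).

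**Figure D1:**
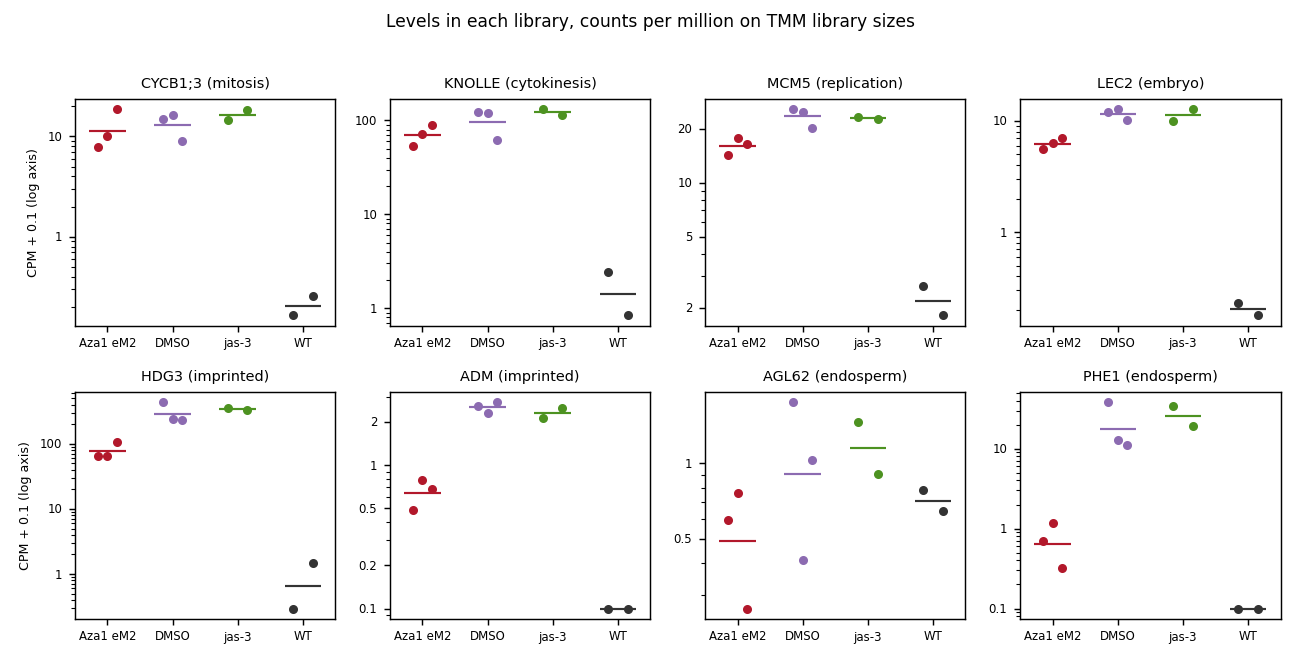
CPM (counts scaled to TMM library sizes) plus 0.1 on a log axis for 8 genes in each library of Aza1 eM2, DMSO, jas-3 and WT; points are libraries and bars are geometric means. The Aza1 eM2 points of the division genes and LEC2 lie far above WT, those of HDG3, ADM and PHE1 lie between DMSO and WT, and those of AGL62 overlap WT.

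LEC2 and LEC1 were the called members, both higher than WT, among 14 seed maturation regulators, where 5.4% of all genes were called higher. LEC2, a B3-domain factor that sets embryo identity, had 197, 274 and 250 counts in Aza1 eM2, with 621, 564 and 480 in DMSO, against 4 and 2 in WT (log2 fold change 5.83, SE 0.29, adjusted p = 2.16e-07). LEC1, an NF-Y subunit with a like role, had 1079, 1375 and 1381 counts in Aza1 eM2, with 3867, 2911 and 1766 in DMSO, against 67 and 32 in WT (4.25, SE 0.32, adjusted p = 2.84e-06). No Aza1 eM2 library reached a DMSO library for LEC2, at -0.91 on the log2 scale (adjusted p = 0.0043), short of the fold threshold, while the groups overlapped in CPM for LEC1. The median over the 14 regulators was -0.07. None of 9 seed storage protein genes and none of 15 oil body and late embryogenesis genes was called, with medians of -1.01 and -0.69 against WT. In DMSO against WT the same medians were -1.92 and -1.39, with 4 and 5 members called lower where 2.98% of all genes were.

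Imprinted genes were lower in Aza1 eM2 than in DMSO for a share of the members, and some of these were still above WT. Of the study's PEGs, 240 were found in the count table and 229 were tested, of which 40 were higher and 1 was lower than in WT, where 5.4% and 1.62% of all genes were, and the median was 0.34 (0.27 with genes at 0 in WT set to their bound). Of the 40, 14 were also called lower than DMSO. Another 17 PEGs were called lower than DMSO, where 1.44% of all genes were, and were not called against WT. HDG3, a homeodomain factor and PEG, had 2378, 2823 and 3947 counts in Aza1 eM2, with 22850, 10704 and 10960 in DMSO, against 6 and 36 in WT (6.68, SE 0.64, adjusted p = 1.39e-05). Its relative HDG9 had 352, 497 and 539 counts in Aza1 eM2, with 2781, 1794 and 1504 in DMSO, against 8 and 2 in WT (6.06, SE 0.50, adjusted p = 4.95e-06). Both lay in every Aza1 eM2 library below every DMSO library, at -1.93 and -1.81 on the log2 scale, and above both WT libraries.

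ADM (AT4G11940), ADMETOS, a J-domain chaperone whose loss is known to rescue triploid seeds, had 14, 30 and 21 counts in Aza1 eM2, with 129, 99 and 125 in DMSO, against 0 and 0 in WT. It was at least 3-fold higher than in WT (adjusted p = 3.17e-05) and was lower than in DMSO (-2.15, adjusted p = 0.00112). SUVH7, a histone methyltransferase homologue, had 30, 34 and 34 counts in Aza1 eM2, with 252, 142 and 184 in DMSO, against 0 and 0 in WT, at least 6-fold higher than in WT (adjusted p = 3.23e-05). PKR2, PICKLE RELATED 2, a chromatin remodeller, had 190, 516 and 548 counts in Aza1 eM2, with 1873, 996 and 1265 in DMSO, against 0 and 10 in WT (5.87, SE 0.69, adjusted p = 5.81e-05). These 3 PEGs thus held an intermediate level, with no Aza1 eM2 library overlapping a DMSO or a WT library. In the list of 21 imprinted and triploid block genes that holds them, 9 were higher than in WT (5.4% over all genes) and none was lower. Of these 9, 3 were also called lower than DMSO, where 1.44% of all genes were, and 6 were not. That list had a fitted median of 3.06, and of 1.14 with its 8 genes at 0 in WT set to their bound. With the seed storage share as a covariate 7 of its members were higher than WT, and in a fit of the 5 libraries alone 4 of 19 tested were. DESeq2 called 11 of them higher and 1 lower.

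Maternally expressed members were among those above WT. FWA, a homeodomain gene read from the maternal copy in endosperm, had 22, 54 and 22 counts in Aza1 eM2, with 582, 265 and 164 in DMSO, against 0 and 0 in WT, at least 5-fold higher than in WT (adjusted p = 0.0019). FIS2 and MEA, Polycomb subunits of the central cell and endosperm, had 100, 116 and 163 counts and 192, 228 and 66 counts in Aza1 eM2, against 10 and 12, and 26 and 20, in WT. They were the 2 called members of 8 PRC2 subunits, where 5.4% of all genes were higher, and the list's median was 0.29. Unlike FWA, neither was called against DMSO, at -0.34 for FIS2 and 0.39 for MEA. The call of MEA was lost without either WT library. RGE1 (ZHOUPI), the endosperm factor that directs its breakdown around the embryo, had 539, 862 and 509 counts in Aza1 eM2, with 1365, 1079 and 950 in DMSO, against 40 and 14 in WT (4.1, SE 0.30, adjusted p = 2.27e-06). It was the only call among 11 endosperm growth regulators, where 5.4% of all genes were higher. IKU1 and IKU2, which set seed size, were at -0.24 and 0.92. Among 9 auxin synthesis genes the only call was TAR1, a tryptophan aminotransferase homologue, with 16, 20 and 31 counts in Aza1 eM2 and 171, 25 and 54 in DMSO, against 0 and 0 in WT. TAR1 was at least 3-fold higher than in WT (adjusted p = 0.00395), a call lost without either WT library.

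Most type I MADS-box genes were not called against WT. Of 18 tested out of 20, 2 were called higher than WT and 9 were called lower than DMSO, where 1.44% of all genes were. The fitted median of 3.49 fell to 0.00 with the 11 genes at 0 counts in either group set to their bound. Summed over the list, Aza1 eM2 held 37.1, 53.8 and 44.1 CPM and DMSO held 229, 131 and 101, against 36.2 and 23 in WT. The summed level of the line thus lay below all DMSO libraries. It was above both WT libraries, but its lowest library, at 37.1 CPM, was close to the WT library at 36.2. AGL92 had 54, 30 and 28 counts in Aza1 eM2, with 871, 443 and 332 in DMSO, against 0 and 1 in WT (adjusted p = 0.00165), a call lost without either WT library. PHE1, PHERES1, a PEG, had 22, 48 and 8 counts in Aza1 eM2, with 1993, 571 and 525 in DMSO, against 0 and 0 in WT, and was not called against WT (adjusted p = 0.0596). AGL62, which holds back cell wall formation in endosperm, had 18, 29 and 6 counts in Aza1 eM2, with 86, 14 and 44 in DMSO, against 21 and 14 in WT. Its log2 fold change against WT was -0.47 with a 95% interval of -2.07 to 1.14, so a difference of either sign remained possible.

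Some genes lay close to WT with a narrower interval, and these were chosen after their values were seen. AT5G10660 had 47, 46 and 49 counts in Aza1 eM2, with 869, 494 and 369 in DMSO, against 43 and 41 in WT, a log2 fold change against WT of -0.28 (95% interval -1.28 to 0.71). SULTR3;2, named as a sulfate transporter, had 17, 31 and 22 counts in Aza1 eM2, with 146, 140 and 102 in DMSO, against 17 and 17 in WT (-0.03, 95% interval -0.87 to 0.82). Both belong to 20 genes that the study listed on these libraries as lowered in Aza1, so their place below DMSO is not independent. RR19, a response regulator of the same list, had 238, 248 and 428 counts in Aza1 eM2, with 7548, 4680 and 3764 in DMSO, against 0 and 6 in WT (6.18 against WT, SE 0.88, adjusted p = 0.000235), and so lay far from either group. Of those 20, 6 were still higher than WT and 1 was lower, where 5.4% and 1.62% of all genes were.

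**Figure D2:**
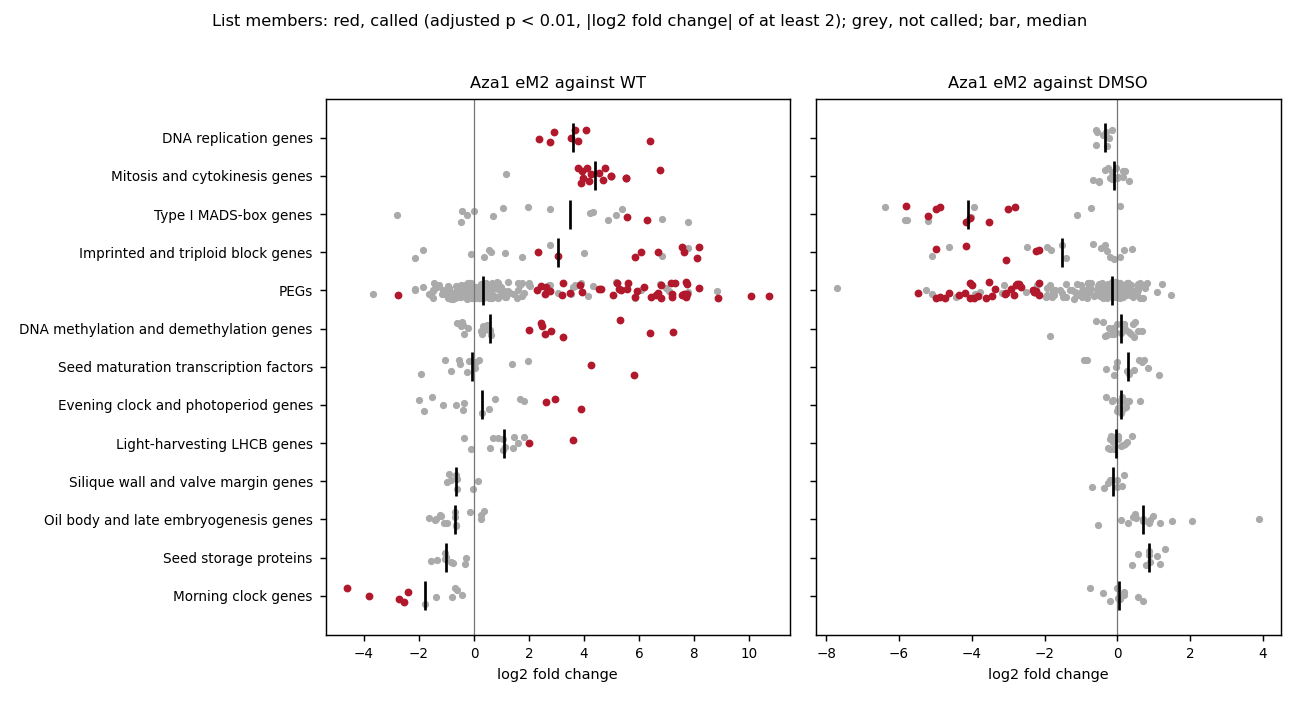
Log2 fold changes of the members of 13 gene lists in Aza1 eM2 against WT (left) and against DMSO (right); red points passed both thresholds, grey points did not, and bars are list medians of fitted values. The replication and mitosis members lie to the right of 0 against WT and around 0 against DMSO, while many MADS-box genes lie far to the left against DMSO.

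Genes of the DNA methylation machinery were called higher than WT in 9 of 23 cases (5.4% over all genes) and lower in none (1.62%), with a list median of 0.58. VIM2, a reader of methylated cytosine, had 748, 1069 and 970 counts in Aza1 eM2, with 2150, 1800 and 1259 in DMSO, against 12 and 4 in WT (log2 fold change 6.39, SE 0.34, adjusted p = 3.04e-07), and its reads may be shared with its near-identical copy VIM4. MET1, which copies CG methylation after replication, had 663, 1224 and 939 counts in Aza1 eM2, with 1574, 1012 and 1088 in DMSO, against 158 and 93 in WT (2.45, SE 0.27, adjusted p = 4.1e-05). CMT3, the CHG methyltransferase, had 472, 656 and 556 counts in Aza1 eM2, against 78 and 40 in WT (2.80, SE 0.24, adjusted p = 7.52e-06). Others called higher were VIM1, the chromatin remodellers CHR1 (DDM1) and CHR38 (CLSY1), the histone methyltransferase SUVH4 and DRM1, and none of the 9 was called against DMSO.

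SDC, an F-box gene that is silenced by methylation of its promoter repeats, had 151, 248 and 192 counts in Aza1 eM2, with 1198, 847 and 597 in DMSO, against 4 and 3 in WT (5.31, SE 0.42, adjusted p = 3.74e-06). It was lower than in DMSO by 1.86 on the log2 scale (adjusted p = 0.00104), just short of the fold threshold, and no Aza1 eM2 library overlapped a library of another group named here. The other 14 members, among them the demethylase DME and the RNA-directed methylation genes AGO4, DCL3 and RDR2, were not called and had log2 fold changes between -0.63 and 0.61.

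Genes for small cysteine-rich LCR peptides, which resemble plant defensins, formed another large group, counted after their values were seen. Of 46 tested out of 80, 18 were higher than WT (5.4% over all genes) and none was lower, and 4 were lower than DMSO (1.44% over all genes). The fitted median was 4.35, and 1.04 with the 20 genes at 0 in WT or Aza1 eM2 set to their bound. LCR48 had 2197, 3222 and 2784 counts in Aza1 eM2, with 15766, 12305 and 8950 in DMSO, against 4 and 10 in WT (8.11, SE 0.44, adjusted p = 3.58e-07). LCR30 had 1367, 1529 and 1551 counts in Aza1 eM2, with 2007, 2430 and 2203 in DMSO, against 6 and 6 in WT (7.47, SE 0.44, adjusted p = 6.39e-07). LCR47 had 424, 669 and 693 counts in Aza1 eM2, against 0 and 0 in WT, at least 100-fold higher. LCR48 thus stood well below DMSO while LCR47, at 0.12 on the log2 scale against DMSO, did not.

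Clock genes were apart from WT in both directions, and here DMSO stood with Aza1 eM2 while the jas-3-labelled libraries stood near WT. Of 11 morning genes, 5 were lower than WT, where 1.62% of all genes were, and the median was -1.77. Of 15 evening and photoperiod genes, 3 were higher, where 5.4% of all genes were, and the median was 0.31. No gene of either list was called between Aza1 eM2 and DMSO, and none between the jas-3-labelled libraries and WT, where 7.08% of genes were higher and 1.99% lower. Every alternative that kept the fold threshold gave 5 lower morning genes and 3 higher evening genes, and up to 2 evening genes were lower in some of them. The hour of collection was not given in the sources used here.

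LHY, a MYB-related factor that peaks at dawn, had 248, 284 and 160 counts in Aza1 eM2, 470, 386 and 266 in DMSO, 4126 and 3887 in the jas-3-labelled libraries, against 4257 and 3976 in WT (log2 fold change of Aza1 eM2 against WT -4.63, SE 0.22, adjusted p = 1.99e-07). CCA1, its partner, had 342, 332 and 298 counts in Aza1 eM2, with 776, 700 and 570 in DMSO, against 3159 and 3361 in WT (-3.80, SE 0.18, adjusted p = 1.99e-07). PRR5, a repressor of both in the later day, had 2026, 2306 and 2715 counts in Aza1 eM2, 2836, 2732 and 3246 in DMSO, 254 and 295 in the jas-3-labelled libraries, against 242 and 204 in WT (2.95, SE 0.19, adjusted p = 1.12e-06). In each case the Aza1 eM2 and WT libraries were far apart. FKF1, a blue-light receptor of the photoperiod pathway, had 1478, 1770 and 2068 counts in Aza1 eM2, with 1795, 1692 and 2498 in DMSO, against 84 and 90 in WT (3.89, SE 0.31, adjusted p = 4.33e-06). TOC1 and GI, evening genes too, were at 1.67 and 0.54 and did not pass the fold threshold. GRP7, an RNA-binding protein and clock output, had 26562, 37082 and 42481 counts in Aza1 eM2, against 2329 and 1086 in WT.

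The evening element AAAATATCT is the sequence that LHY and CCA1 bind, and it stood in 5 of 15 evening and photoperiod promoters (33.3%), in 1 of 11 morning promoters and in 3.03% of all of them, on either strand. The other evening genes with a match, TOC1, PCL1 and BOA, were not called higher, and ELF4, which was, has no match. A match does not show binding. The stretches of FKF1 (chr1:25508389-25508508, plus strand, starting 250 bases before the gene start) and PRR5 (chr5:8358677-8358796, minus strand) are shown with the match in capitals. They were picked because these genes moved opposite to LHY and CCA1.
FKF1: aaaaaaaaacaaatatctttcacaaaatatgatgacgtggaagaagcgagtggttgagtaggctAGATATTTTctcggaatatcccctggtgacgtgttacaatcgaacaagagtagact
PRR5: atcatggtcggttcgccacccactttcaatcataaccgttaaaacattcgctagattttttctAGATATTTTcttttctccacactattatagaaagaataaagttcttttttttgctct

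**Figure D3:**
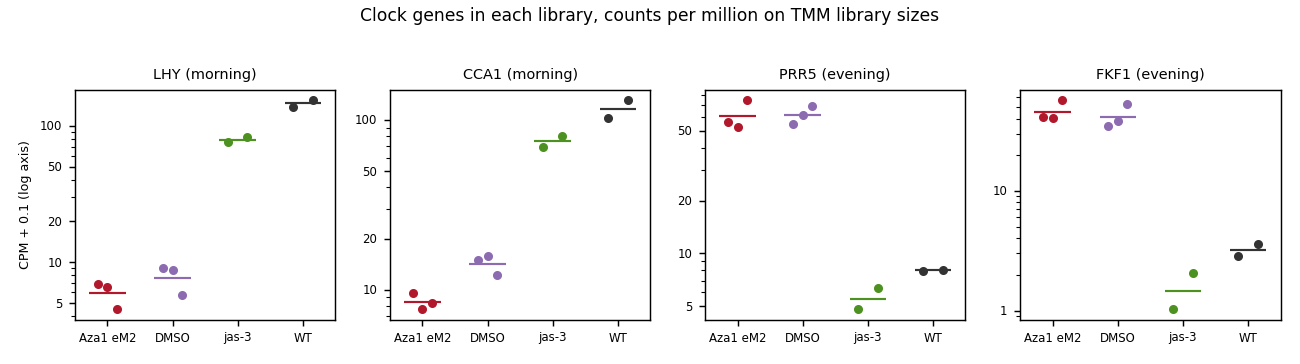
CPM plus 0.1 on a log axis for LHY, CCA1, PRR5 and FKF1 in each library of Aza1 eM2, DMSO, jas-3 and WT; points are libraries and bars are geometric means. Aza1 eM2 and DMSO lie together on one side, and jas-3 and WT on the other.

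Jasmonate genes were among the abundant genes below WT. In a list of 29 made after values were seen, 7 of 27 tested were lower than WT (1.62% over all genes) and none was higher, with a median of -0.95. The same list had medians of -1.52 in DMSO and -1.32 in the jas-3-labelled libraries, both relative to WT, with 7 and 5 members lower where 2.98% and 1.99% of all genes were, and no member was called between Aza1 eM2 and DMSO. HPL1, a hydroperoxide lyase that makes leaf volatiles from a substrate shared with jasmonate synthesis, had 46, 28 and 82 counts in Aza1 eM2, 56, 68 and 96 in DMSO, 656 and 562 in the jas-3-labelled libraries, against 12428 and 15212 in WT (log2 fold change of Aza1 eM2 against WT -8.50, SE 0.48, adjusted p = 4.48e-07). LOX2, the lipoxygenase that starts jasmonate synthesis, had 14667, 3382 and 19376 counts in Aza1 eM2, with 16265, 11881 and 16183 in DMSO, against 68837 and 96978 in WT (-3.15, SE 0.59, adjusted p = 0.00152), a call lost without WT replicate 2. MYC2, a main factor of the jasmonate response, had 970, 830 and 1428 counts in Aza1 eM2, against 3924 and 4707 in WT (-2.46, SE 0.32, adjusted p = 0.000137).

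Storage and catabolic targets varied widely within Aza1 eM2. VSP1, a vegetative storage protein induced by jasmonate, had 2486, 228 and 11012 counts in Aza1 eM2, with 4440, 6705 and 5244 in DMSO, against 34871 and 89361 in WT (-4.20, SE 1.09, adjusted p = 0.0098). ARGAH2, an arginase, had 5841, 846 and 10984 counts in Aza1 eM2, against 37910 and 55214 in WT (-3.39, SE 0.82, adjusted p = 0.00648). Both calls were lost without Aza1 eM2 replicate 1 or without either WT library, and Aza1 eM2 replicate 2 was lowest for both, as for LOX2, HPL1 and MYC2. The count of 7 lower genes fell to 2 without WT replicate 2 and to 1 with the seed storage share as a covariate.

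Light-harvesting genes of the LHCB family included 2 of 14 that were higher than WT (5.4% over all genes), a count of 0 without WT replicate 2, and the list's median was 1.1. CAB1, the most abundant of them, had 130920, 139686 and 104381 counts in Aza1 eM2, against 28477 and 17307 in WT (2.01, SE 0.31, adjusted p = 0.000459), close to the fold threshold. Its call was lost without WT replicate 2 or Aza1 eM2 replicate 1 and with DESeq2. In the seed coat lists, none of 17 flavonoid genes was called, and 1 of 12 mucilage genes was higher, where 5.4% of all genes were. This was MUM2, a beta-galactosidase of mucilage, with 4429, 5240 and 3426 counts in Aza1 eM2, against 778 and 677 in WT. Its log2 fold change was 2.12 (SE 0.19, edgeR adjusted p = 8.54e-06). No member of the silique wall (8 tested), pollen (4), defence (8) or senescence (10) lists was called, where 5.4% of all genes were higher and 1.62% lower. Still, 3 silique wall and 3 senescence genes had an adjusted p under 0.01 (edgeR) and fell short of the fold threshold alone.

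A few genes were above both WT and DMSO. AT3G01345, which lies on chromosome 3 between 129138 and 130749, had 5542, 3760 and 3038 counts in Aza1 eM2, 72, 56 and 68 in DMSO, 80 and 60 in the jas-3-labelled libraries, against 4 and 4 in WT (log2 fold change 9.53 against WT, SE 0.59, adjusted p = 8.34e-07). It was at 6.30 against DMSO (adjusted p = 1.51e-05). AT5G41660, which lies on chromosome 5 between 16656708 and 16658405, had 346, 3384 and 2410 counts in Aza1 eM2, at most 2 in each DMSO and jas-3 library, and 0 and 0 in WT, at least 81-fold higher than in WT (adjusted p = 0.00026). AT3G60950, which lies on chromosome 3 between 22524475 and 22530306, had 286, 1418 and 342 counts in Aza1 eM2, at most 2 in each DMSO and jas-3 library, and 3 and 3 in WT (7.24, SE 0.83, adjusted p = 5e-05). AT5G41660 and AT3G60950 thus had at most 3 counts in each DMSO, jas-3 and WT library, whereas AT3G01345 was also called higher than WT in DMSO and in the jas-3-labelled libraries. In all, 11 genes had at least 20 counts in every Aza1 eM2 library and at most 10 in each of the 7 DMSO, jas-3 and WT libraries. Of them, 8 were called higher than WT, but they were picked on these same counts, so the calls are not a separate result. OFP9 was uneven, at 2, 1568 and 610 counts in Aza1 eM2 against 0 and 0 in WT (adjusted p = 0.00739), and its call was lost in fits without its replicate 2 or 3 or without either WT library.

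Other genes were silent in WT alone. AT4G10490, annotated as a 2-oxoglutarate-dependent oxygenase on chromosome 4 between 6483867 and 6485360, had 1417, 1498 and 1235 counts in Aza1 eM2, with 1147, 1131 and 844 in DMSO, against 0 and 0 in WT, at least 290-fold higher than in WT (adjusted p = 5.33e-07). AT1G26796, annotated in the S1 self-incompatibility family, had 414, 1061 and 486 counts in Aza1 eM2, with 6632, 6088 and 4311 in DMSO, against 0 and 0 in WT, at least 98-fold higher than in WT (adjusted p = 2.68e-05). It was also called lower than DMSO, at -2.86 on the log2 scale (adjusted p = 0.00227). Of the 234 higher genes at 0 in both WT libraries, 215 had more than 3 counts in each of the 12 libraries that carry jas-3. In the other direction, 14 of the 363 lower genes had at most 3 counts in each of those 12 libraries. This rule covers more libraries and another set of genes, so the counts of the 2 directions cannot be compared. AT5G06630, annotated as an extensin-like gene on chromosome 5 between 2036361 and 2037843, had 0 counts in all 12, against 94 and 102 in WT, and was at least 36-fold lower in Aza1 eM2 (adjusted p = 0.00211), a call lost without either WT library. AT4G07524 and AT5G27170 had the same pattern, with 68 and 158, and 55 and 93, counts in WT. AT5G42500, annotated in the dirigent family, had 0, 0 and 1 counts in Aza1 eM2, with 2, 4 and 0 in DMSO, against 185 and 175 in WT (-9.12, SE 0.93, adjusted p = 3.55e-05). Over the 363 lower genes the median against WT was -2.89 in Aza1 eM2, -2.84 in DMSO and -2.38 in the jas-3-labelled libraries. Directly against DMSO it was -0.03, and the single gene called there was AT5G41250, at 0, 4 and 4 counts in Aza1 eM2 and 374, 100 and 70 in DMSO, against 70 and 16 in WT.

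**Figure D4:**
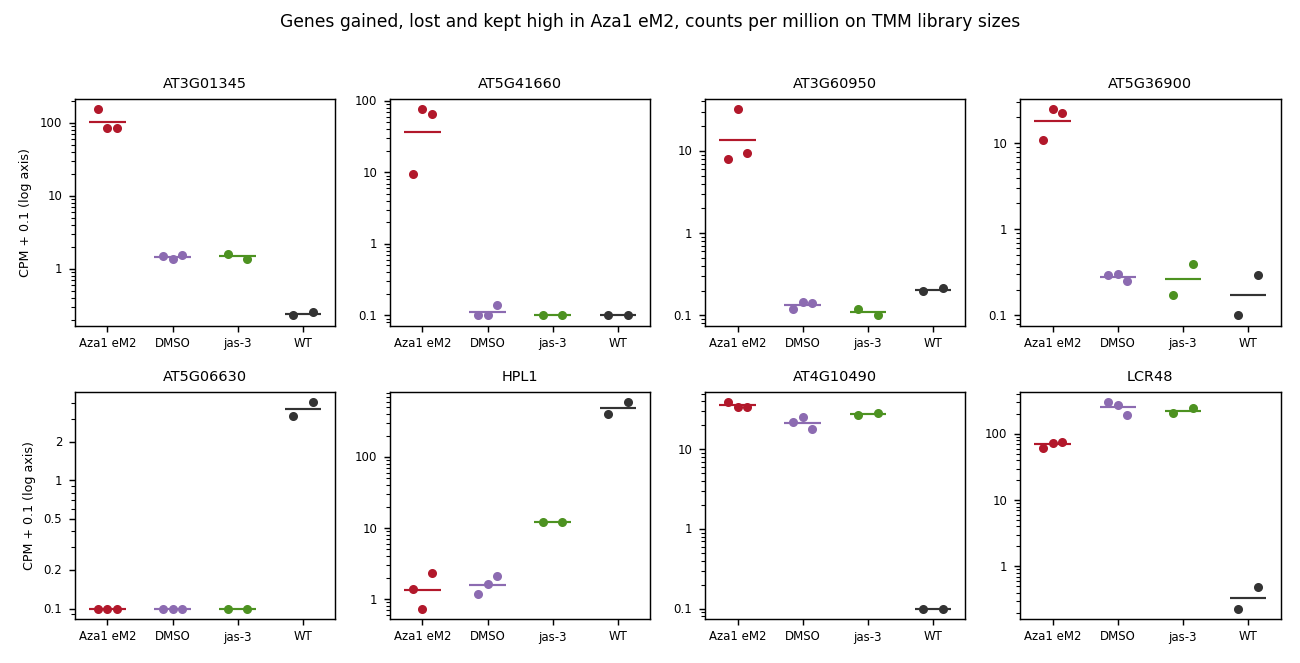
CPM plus 0.1 on a log axis for 8 genes in each library of Aza1 eM2, DMSO, jas-3 and WT; points are libraries and bars are geometric means. The upper genes are highest in Aza1 eM2, and AT3G01345 is also above WT in DMSO and jas-3. AT5G06630 and HPL1 are high in WT, and AT4G10490 and LCR48 are low in WT alone.

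Transposable elements (TEs) were tested where no gene lay within 500 bases. Of 19524 such elements, 849 passed the filter on low counts and were tested. Of these 849, 69 (8.13%) were higher and 18 (2.12%) were lower than in WT. The fitted median over the 849 was 1.2, with elements at 0 in a group not set to a bound. Both WT libraries were at 0 for 35 of the 69. Helitrons had 19 higher and 3 lower of 205, Gypsy elements 11 and 2 of 140, En-Spm elements 10 and 4 of 77, Copia elements 9 and 3 of 91, and MuDR elements 8 and 2 of 127. Among the 69, 50 had at most 3 counts in each WT library, and 21 of these also had at most 10 in each DMSO and jas-3 library. AT2TE35685, an ATREP7 Helitron that lies on chromosome 2 between 8529599 and 8529925, had 360, 639 and 486 counts in Aza1 eM2, with 3384, 2347 and 1816 in DMSO, against 3 and 1 in WT (7.62, SE 0.47, adjusted p = 3.2e-06). AT3TE69350, an ATENSPM9 element that lies on chromosome 3 between 17106151 and 17115098, had 1199, 8967 and 3158 counts in Aza1 eM2, at most 4 in each DMSO and jas-3 library, and 2 and 0 in WT (adjusted p = 0.000388). AT2TE35685 thus had fewer counts in each Aza1 eM2 library than in any DMSO library, and TEs were not tested against DMSO.

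TE calls moved more with single libraries than gene calls did. With WT replicate 1 or replicate 2 left out, 16 TEs were higher in either case, and without Aza1 eM2 replicate 2 the number was 173. A fit of the 5 libraries alone called 0 TEs in either direction (edgeR), with 250 at an unadjusted p under 0.05. In the fit of all libraries 381 had such a p, and DESeq2 called 67 higher and 9 lower. Of the lower TEs, AT5TE30770, AT5TE30775 and AT5TE30780 lie side by side near VSP2, each with 679 and 1334 counts in WT. AT5TE56565, AT5TE56570 and AT5TE56575 lie near AT5G39080, each with 50 or 52 and 68 counts in WT. AT3TE39970, AT3TE39975 and AT3TE39980 each had 39 or 40 and 42 counts, and AT1TE37865 and AT1TE37870 had 44 and 66, and 46 and 68. Calls within each of these runs are not independent, and each TE was counted separately. Among the higher TEs, 6 of the 69 overlap another of them, such as AT4TE09080 and AT4TE09085 with 1092, 4393 and 251 and 1092, 4379 and 251 counts in Aza1 eM2, and these were counted separately in the totals and families. Others lie side by side without overlap, among them AT2TE35685 and AT2TE35690, AT3TE00665 and AT3TE00670, AT1TE64825 and AT1TE64830, and AT4TE48430 and AT4TE48435. Their calls are not independent either, and each was counted separately.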

How the data were processed

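RNA was sequenced from 14 silique libraries, and the authors aligned reads to TAIR10 with STAR and deposited read counts per gene and per TE. Counts were tested as deposited in edgeR 4.0.16 (R 4.3.3) after filtering on expression by group and TMM scaling, in a quasi-likelihood fit of all 14 libraries with group as the only term. Of 27394 genes, 22359 were tested. The fit left 9 residual degrees of freedom, with a common biological variation (BCV) of 0.247. Total gene counts of 40526464 to 43974069 mean that depth limits only genes of few counts. The study calls the replicates biological, but separate plants were stated only for the eM3 libraries. The p-values thus measure the spread between these libraries, and how far it holds differences between plants is not known. Counts were also simulated with 1 common dispersion and 200 genes changed by 2 on the log2 scale, none of them of low level. With a log2 threshold of 1, 192 of these were called in the comparison of Aza1 eM2 with WT. That number does not give the sensitivity at the threshold of 2 used for the calls reported here.

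Members and lists were chosen with earlier results of these data known. Genes were named by size of change, abundance, difference from DMSO and the smallest adjusted p of each list, up to 3 per direction. Genes named beyond that rule, among them PHE1, AGL62, SUVH7, PKR2, FWA, LCR30, LCR48, HPL1, MYC2 and the TEs, were chosen after their values were seen. A list member whose symbol did not match the RefSeq annotation was dropped. A fold against a group at 0 was taken against 3 counts per library. Alternatives were DESeq2 1.42.0, other scalings and filters, a replicate block, the seed storage share as a covariate and fits without each library.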

Additional observations from a re-analysis of the deposited data

How the results depend on the processing

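Main counts were 1207 genes higher and 363 lower in Aza1 eM2 than in WT. A log2 threshold of 1 gave 2202 and 1055, at least 10 counts in every library gave 424 and 208, and a fit of the 5 libraries alone gave 697 and 231. With the seed storage share as a covariate 189 were lower. Leaving out one library gave 836 to 1163 higher and 155 to 372 lower, with both lowest values without WT replicate 2, where 788 of the 1207 and 145 of the 363 were still called. DESeq2 called 1181 and 354 of them.

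The 69 higher and 18 lower TEs became 213 higher with no filter, 5 and 0 at 10 counts in every library, 0 and 0 in the fit of 5 libraries, and 338 and 67 with all TEs, and DESeq2 called 9 lower. Leaving out one library gave 16 to 173 higher and 2 to 28 lower. The cause was not tested. The seed storage difference was -12.4 percentage points and ranged over -15.3 to -9.4 when one library was left out, an alternative chosen after seeing the data.

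A fit with the replicate number as a block called 1095 genes higher and 266 lower, and 35 TEs higher and 8 lower. Deviations of same-numbered libraries of Aza1 eM2 and WT from their group means correlated at -0.18 and -0.155. With 2 WT libraries these deviations are mirror images, so the correlations cannot decide whether the numbers mark pairs.

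Of 73 named genes, 24 lost their call in at least 1 alternative and none changed direction where a value was given. The filter of 10 counts in every library left out 37 of the 73, DESeq2 and the 5-library fit gave no value for 1 each, and these omissions do not count as lost calls. Without WT replicate 2 the call was lost for 18, with the covariate for 17 and in the 5-library fit for 15. With 2 WT libraries, precision is limited by their number more than by depth.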
